A study of Homo sapiens with 13 samples.

Results

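The genes described here are the microRNA genes of the INK128 table, chosen by a symbol that starts with MIR and a digit or with MIRLET and does not end in HG, the ending of host genes. They took 80 of the 13163 rows and carried 79 symbols, since MIR1244-1 is listed at 2 loci. Their loci were short, 61 to 180 bases with a median of 84 bases. Every gene of this table was above 0 FPKM in all 4 libraries, so a hairpin listed at 0 in any of them could not appear, although values far below that of 1 read did.

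The data came from MDA-MB-231, an established human cell line from a ductal breast carcinoma that lacks the estrogen, progesterone and HER2 receptors. Cells at passage 3 were given 200 nM INK128, a catalytic inhibitor of the kinase mTOR, for 2 h, and control cells were given the vehicle DMSO for 2 h. From each treatment 1 library of ribosome footprints (RFs), the RNA fragments that ribosomes shield from RNase I, and 1 library of total RNA were sequenced, and all 4 libraries shared the same cell line, passage and duration. The labels call the second kind total RNA, whereas the study's methods describe a selection of polyadenylated RNA for its mRNA libraries, and which of these holds for the INK128 libraries was not settled here. With 1 library in each group no difference below could be tested against the spread between cultures, and no overlap between groups could be judged.

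Of the marker genes looked up, 7 had values. SPARC, ESR1, PGR, PTPRC and ALB were not among these 7, so their levels are not known here. VIM, a mesenchymal filament protein, was at 1852 RF FPKM with DMSO and 1299 with INK128. CD44 and CAV1 were above 230 RF FPKM in both libraries, and PECAM1 was at 0.109 with DMSO and 0.113 with INK128. The epithelial CDH1 was at 0.172 and 0.294, while the epithelial EPCAM was above 10 in both libraries and ERBB2, which encodes HER2, at 6.41 and 6.77. FPKM stands for fragments per kilobase and per M fragments (M, mega). The FPKM values of short genes followed whole steps, from which read numbers were recovered. Their steps corresponded to normalising totals of 68.0 M (DMSO) and 67.4 M (INK128) in the RF libraries, and of 99.1 M and 94.0 M in the total RNA libraries. After 1 FPKM was added to each value, the median gene with a mean of at least 1 FPKM had a log2 RF change of 0.02 with INK128 and a log2 total RNA change of −0.73. For the same genes without the added 1 FPKM the total RNA median was −1.15. Hairpins, with higher FPKM values, hardly moved with the added 1 FPKM, so changes in total RNA are to be read against both shifts.

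A microRNA is cut from a hairpin in a longer primary transcript by DROSHA and DGCR8 in the nucleus, carried out by XPO5 with RAN, and trimmed by DICER1 to a mature strand that is loaded onto an Argonaute protein. The seed, bases 2 to 8 of the mature strand, pairs with target mRNAs, and microRNAs with 1 seed form a family. Hairpins often lie in clusters that are transcribed together, and many sit in introns or exons of other genes. In breast cancer cells miR-21, miR-221 and miR-222 are known as growth-promoting microRNAs and the let-7 family as a growth-restraining one. None of these hairpins encodes a protein, so RF reads on them were taken only as reads recovered with the monosome fraction, not as translation.

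The values below belong to hairpin loci and neither arm was measured alone. To show which microRNAs the main contrasts concern, mature strands of these hairpins are given from RefSeq (GRCh38.p14), 5′ to 3′ with the seed in capitals, and 73 of the 80 rows had an entry there by gene ID. First stand the hairpins with more RF reads under INK128, miR-21, miR-222 with its family member miR-221, and miR-30c.

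hsa-miR-21-5p: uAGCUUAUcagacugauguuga
hsa-miR-222-3p: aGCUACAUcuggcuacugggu
hsa-miR-221-3p: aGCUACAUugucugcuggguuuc
hsa-miR-30c-5p: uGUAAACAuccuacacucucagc

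The second set is the miR-23, miR-27 and miR-24 trio, which is encoded by a cluster on chromosome 19 and a paralogous cluster on chromosome 9. In RFs the counting interval of the miR-27 hairpin did not meet those of its neighbours on chromosome 19. On chromosome 9 the intervals overlapped, which is no test of a difference, and the clusters were not tested against each other.

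hsa-miR-23a-3p: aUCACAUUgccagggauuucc
hsa-miR-23b-3p: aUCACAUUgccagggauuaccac
hsa-miR-27a-3p: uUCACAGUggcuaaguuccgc
hsa-miR-27b-3p: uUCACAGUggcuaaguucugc
hsa-miR-24-3p: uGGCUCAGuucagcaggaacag

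The third set is the let-7 family, in which 8 of 10 hairpins were lower in RFs and all 10 higher in total RNA with INK128.

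hsa-let-7a-5p: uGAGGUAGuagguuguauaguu
hsa-let-7d-5p: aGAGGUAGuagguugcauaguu
hsa-let-7e-5p: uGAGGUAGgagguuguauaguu
hsa-let-7f-5p: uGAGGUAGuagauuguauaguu
hsa-let-7g-5p: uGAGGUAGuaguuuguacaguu
hsa-let-7i-5p: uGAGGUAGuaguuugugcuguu
hsa-miR-98-5p: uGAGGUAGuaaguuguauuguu

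The 126 mature strands found for the hairpins were 20 to 27 bases long. Several loci give the same mature strand, so a read that covers it alone cannot be placed at 1 locus. This holds for the 3 let-7a loci and for the loci pairs of let-7f, miR-16, miR-24, miR-26a, miR-29b, miR-103b, miR-181a and miR-181b.

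The abundance of the hairpins was first set out as reads. One read was worth 30.5 FPKM on a hairpin of 61 bases in the DMSO RF library, 16.8 FPKM at 72 bases, 9.80 FPKM at 84 bases and 3.86 FPKM at 110 bases. FPKM therefore did not compare hairpins of different length, and reads per 100 bases are used for that. The median hairpin had 7.94 RF reads with DMSO and 9.75 with INK128, and 43 and 40 of the 80 hairpins had under 10. In total RNA the medians were 43.4 and 51.5 reads. In all, 3402 RF reads fell on hairpins with DMSO and 3740 with INK128, against 40514 and 42634 in total RNA.

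RF reads were concentrated on few hairpins. As the mean of both libraries, MIR3661 had 1025 RF reads per 100 bases, MIR27A 493, MIR222 426, MIR21 347 and MIRLET7D 121. These were followed by MIR4449, MIR138-1, MIRLET7A2, MIRLET7A1 and MIR3607, between 99.4 and 116. The 5 hairpins with the most RF reads held 61.4% of all hairpin RF reads with DMSO and 61.8% with INK128.

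Total RNA had another order. MIR3687 led with 8790 total RNA reads per 100 bases, ahead of MIR1248 (7638), MIR3648 (7273), MIR663A (5131), MIR21 (1811), MIR222 (1582), MIR3607 (1146), MIR221 (813), MIR3651 (479) and MIR100 (412). Of the 4 highest, MIR3648 had 46.5 and 19.5 RF reads and MIR3687 12 and 20.5. MIR1248, whose locus coincides with the small nucleolar RNA SNORA81, had 7932 total RNA reads with DMSO and 8260 with INK128 and 0 RF reads in either library, which allows up to 3 reads. MIR1291, which coincides with SNORA34, likewise had 0 RF reads in both libraries, beside 113 and 156 total RNA reads. MIR663A had 3 RF reads in each library beside 4846 and 4698 total RNA reads.

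**Figure D1:**
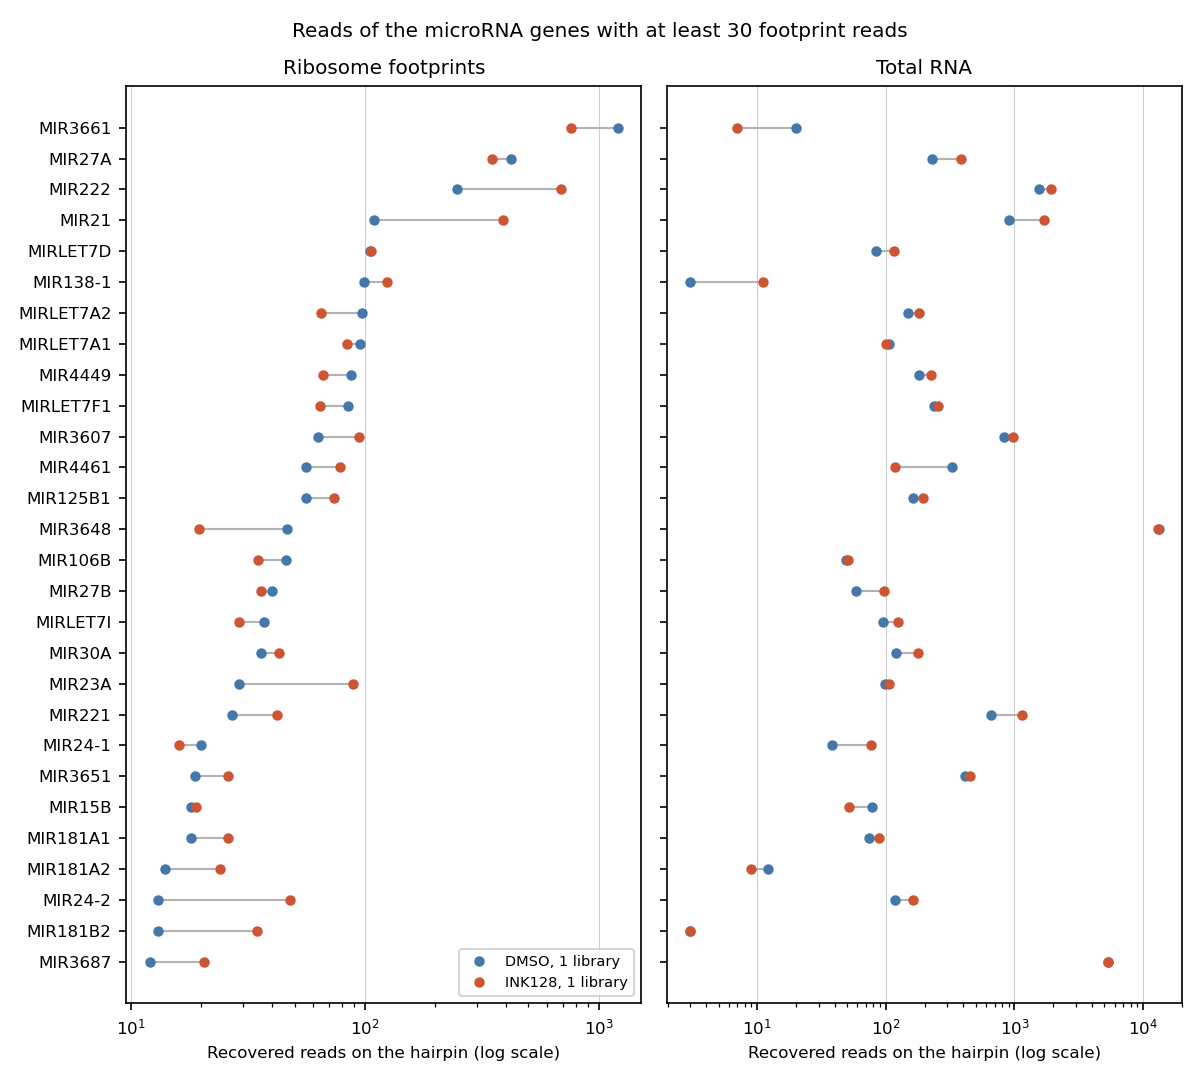
Recovered reads of the 28 microRNA genes with at least 30 RF reads over both libraries, in RFs (left) and total RNA (right), on log axes. Each point is 1 library, DMSO in blue and INK128 in red, and the grey lines join the libraries of an assay. MIR222 and MIR21 lie far to the right with INK128 in RFs, MIR3661 and MIR27A do not, and MIR3661 and MIR138-1 have many RF reads but few total RNA reads.

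The RF change with INK128 was then computed as the log2 ratio of FPKM + 1, and a hairpin was counted when it was past 2-fold. Of the 78 hairpins with a mean of at least 1 FPKM, 14 were past 2-fold higher and 11 past 2-fold lower, whereas 1.05% of all 10872 genes under the same filter were higher and 1.38% lower. Among the 242 other genes under 200 bases, 31.4% were past 2-fold higher and 2.48% lower. The hairpins had a median log2 RF change of 0.06, near the 0.02 of all genes, with a wider spread (SD over genes 1.32 against 0.33). The spread was similar below and above 20 RF reads and narrower in hairpins with 100 or more. Of the 41 hairpins with under 20 RF reads over both libraries 12 were past 2-fold (SD 1.29), and of the 39 with 20 or more 13 were (SD 1.31). The 41 include MIR1248 and MIR1291, which had 0 RF reads and did not pass the filter. The 39 include MIR22 at −4.38, whose values were not whole reads. Among the 14 with 100 or more, 3 were past 2-fold (SD 0.83), MIR21, MIR222 and MIR23A. Their log2 changes ran from −0.65 to 1.86.

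To give the counting error of each, the 95% interval of each ratio was taken from the recovered reads with the exact binomial method. The interval covers counting error only, not the difference between cultures, and reads without molecular identifiers are not independent molecules. It could be had for 72 hairpins and lay above no change in 10 and below it in 6. Of the 226 other genes under 200 bases, 65.9% lay above and 6.19% below by the same rule.

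MIR21 encodes miR-21 from chr17:57918627-57918698 on hg19, where the annotation places it in an exon of an isoform of VMP1. The hairpin held 109 RF reads under DMSO and 391 under INK128, 3.62 times as many on the FPKM scale (counting interval 2.92 to 4.52). In total RNA it had 908 and 1700 reads, a ratio of 1.97 (1.82 to 2.14). MIR21 was the only hairpin with over 100 reads in every library that was near or past 2-fold in both assays.

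MIR222 and MIR221, which share a seed and restrain CDKN1B, lie on chromosome X at 45606421 to 45606530 and 45605585 to 45605694, inside an intron of MIR222HG. MIR222 had 248 RF reads with DMSO and 689 with INK128, a ratio of 2.80 (2.42 to 3.26). MIR221 had 27 and 42 RF reads, and its ratio of 1.57 had an interval that reached no change (0.946 to 2.65). In total RNA the larger ratio was that of MIR221, at 1.84 (1.67 to 2.03) from 651 and 1138 reads, against 1.31 (1.23 to 1.40) for MIR222 from 1551 and 1929 reads. Both hairpins were higher with INK128 in both assays, while their order differed between assays.

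The farthest ratios rested on few reads. MIR30C2, in an exon of LINC00472, had 1.5 RF reads with DMSO and 18.5 with INK128, a ratio of 12.5 (2.55 to 184). MIR146A, an inhibitor of NF-κB signalling, had 1 and 11 RF reads, a ratio of 11.1 (1.61 to 478). MIR301A had 4 and 18 RF reads, a ratio of 4.54 (1.50 to 18.5), and MIR181B2 had 13 and 34.5, a ratio of 2.68 (1.38 to 5.53). Intervals of these 4 hairpins left out no change, while that of MIR210, the hypoxia-induced microRNA, with 1 and 7 RF reads, ran from 0.908 to 318. The remaining hairpins past 2-fold higher were MIR16-1, MIR17, MIR23A, MIR23B, MIR24-2, MIR32 and MIR130A, of which MIR17 and MIR130A had at most 3 RF reads in each library, too few to read a change from. In all, 7 of the 14 had at most 4 RF reads with DMSO.

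Among the hairpins past 2-fold lower, MIR191 had 18 RF reads with DMSO and 3 with INK128, a ratio of 0.168 (0.0317 to 0.576), and MIR3648 had 46.5 and 19.5, a ratio of 0.423 (0.236 to 0.733). The interval of MIR16-2, with 14 and 4 reads, also left out no change (0.0691 to 0.918). The other 8 were MIR22, MIR320A, MIR331, MIR424, MIR1226, MIRLET7A3, MIRLET7E and MIRLET7F2. MIR22 and MIRLET7A3 were lowest, at −4.38 and −3.65 on the log2 scale, from 22.8 and 0.988 reads and from 7.87 and 0.561 reads. Both lie in exons of listed host genes and carried the status LOWDATA in the deposited table, which 5 hairpins did, and their values were not whole reads, so no interval was computed. In all, 8 of these 11 had at most 4 RF reads with INK128. With less than a 2-fold difference, MIR27A, MIRLET7A2 and MIR3661 had intervals wholly below no change, and MIR3607 with 63 and 94 reads, a ratio of 1.51 (1.08 to 2.11), had one wholly above it.

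MIR3661 had more RF reads than any other hairpin, 1207.5 with DMSO and 760.5 with INK128, a ratio of 0.636 (0.580 to 0.697). It lies at chr5:133561448-133561543, on the strand opposite to PPP2CA, the catalytic subunit of protein phosphatase 2A, whose locus holds it. PPP2CA itself had 76.7 RF FPKM with DMSO and 76.9 with INK128. The libraries were strand-specific, but the use of strand in these FPKM values is not given in the sources used here, so reads of the 2 genes cannot be told apart. In total RNA MIR3661 had 20 and 7 reads, and its log2 change of −1.44 without a pseudocount stood beside −1.50 for PPP2CA.

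**Figure D2:**
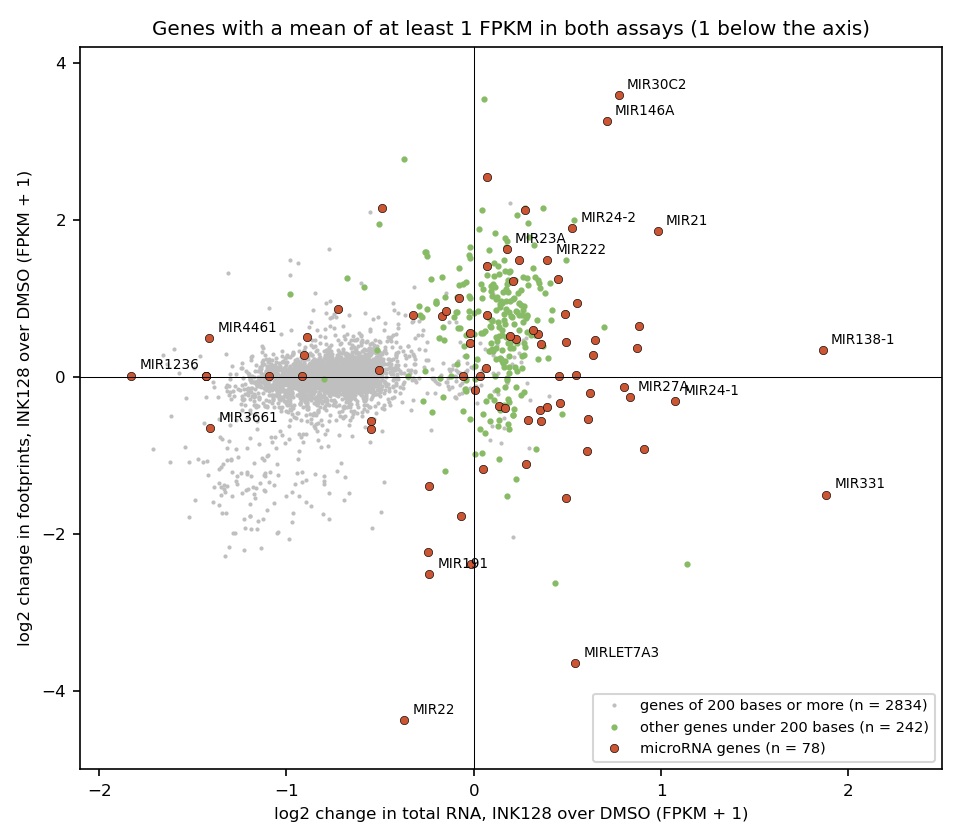
Log2 change with INK128 in total RNA (horizontal) and in RFs (vertical), each from 1 library per treatment and on the FPKM + 1 scale, for genes with a mean of at least 1 FPKM in both assays. Red points are 78 microRNA genes, green points 242 other genes under 200 bases and grey points 2834 longer genes, and 1 longer gene lies below the axis. Longer genes centre to the left of 0 in total RNA, whereas microRNA genes and other short genes lie mostly to the right of them, and the microRNA genes spread farther along the vertical axis.

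In total RNA all 80 hairpins passed the filter, and their median log2 change was 0.20, against −0.73 for all 3181 genes and 0.14 for 242 other genes under 200 bases. Without centring 3 hairpins were past 2-fold higher and 7 lower, beside 0.126% and 15.2% of all genes, and 0.413% and 0% of the other short genes. Without the added 1 FPKM the hairpin counts stayed at 3 and 7, while 71.5% of all genes were past 2-fold lower. Centred on the median of all genes, 36 hairpins were past 2-fold higher and 1 lower, or 58 and 0 without the added 1 FPKM. The direction of the hairpin counts in total RNA thus turned with the scaling, while 70 of the 80 hairpins lay above the median of all genes. By counting intervals, 23 of 71 hairpins lay above no change and 7 below, against 62.2% and 13.9% of the 230 other short genes for which an interval could be had.

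The 3 hairpins past 2-fold higher in total RNA were MIR331, MIR138-1 and MIR24-1, and only 4 of all genes were. MIR331 had 7 total RNA reads with DMSO and 25 with INK128, a ratio of 3.77 (1.58 to 10.3), but 6 and 2 RF reads. MIR138-1, at chr3:44155704-44155802 and in no other annotated gene, had 3 and 11 total RNA reads, a ratio of 3.87 (1.02 to 21.6). RF reads were far more numerous, 99 under DMSO and 124 under INK128, and their ratio of 1.26 had an interval that held no change (0.963 to 1.66). MIR24-1 had 38 and 76 total RNA reads, a ratio of 2.11 (1.41 to 3.20), and 20 and 16 RF reads.

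Below this size, total RNA reads of the more abundant hairpins were mostly higher with INK128. MIR27A had 228 and 385, a ratio of 1.78 (1.51 to 2.11), MIR29B1 196 and 340.5, a ratio of 1.83 (1.53 to 2.20), and MIR30A 120 and 177, a ratio of 1.56 (1.23 to 1.98). MIR3648, MIR3687 and MIR663A, among the most abundant, had ratios of 1.04, 1.05 and 1.02. MIR100 had 331 and 328 reads, a ratio of 1.05 (0.895 to 1.22).

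The 7 rows past 2-fold lower in total RNA held 5 distinct sets of values, because MIR1244-1 at both of its loci and MIR1244-3 carried the same 40 and 14 reads. MIR1236 in an exon of NELFE had 12 and 3 reads and MIR614 in an exon of GPRC5A had 25 and 11, with ratios of 0.264 (0.0478 to 0.977) and 0.464 (0.206 to 0.978). MIR4461 had 329 and 117 reads, a ratio of 0.375 (0.301 to 0.465), and lies in an intron of PCBD2 opposite to a pseudogene of a mitochondrial gene. MIR3661 was the last of these. None of the 7 was past 2-fold in RFs, where 14 of the 78 hairpins past the filter were higher and 11 lower. The 3 MIR1244 rows had 1 RF read in each library, and MIR1236 and MIR614 had 2, too few to read a change from.

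The relation of a hairpin to the genes around it was then examined. By GENCODE, 26 of the 80 loci lay in introns of protein-coding genes, 19 in introns and 18 in exons of non-coding genes, 5 in exons of protein-coding genes, 3 on another small RNA gene, and 9 in no other gene of the same strand. Of the loci in exons of non-coding genes, 16 of 18 were above 0 in total RNA, with a median log2 change of 0.42, beside 65.0% of all hairpins, 76.0% of other short genes and 8.83% of all genes above 0. In introns, 13 of 26 loci in protein-coding genes (median 0.06) and 13 of 19 in non-coding genes (median 0.24) were above 0. Of the 9 in no other gene 5 were, with a median of 0.05. All 3 loci on small RNA genes (MIR1248, MIR1291 and MIR3651) were above 0 as well, with a median of 0.23. Of the 5 in exons of protein-coding genes, MIR21 and MIR3607, whose own entry in GENCODE is typed as a small nucleolar RNA, were above 0, and the others (MIR614, MIR1236 and MIR4745) lay between −0.92 and −1.83.

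A gene of the same table surrounded 45 of the hairpins, giving 46 pairs with 34 genes. Ratios without a pseudocount were used here, since many of the surrounding genes had total RNA values near 1 FPKM. The surrounding genes had a median log2 total RNA change of −1.20 and 32 of 34 were below 0, close to all genes of the table on this scale, whose median was −1.17 with 96.4% below 0. The hairpins inside them had a median of 0.13. In 42 of the 46 pairs the hairpin lay above its gene, by a median of 1.34. On this scale 74 of all 80 hairpins lay above −1.15, the median of the genes that passed the filter. Other genes under 200 bases had a median of 0.14. The offset within pairs was not told apart from this offset between short genes and all genes. In the intron of MCM7, a subunit of the replicative helicase, MIR25, MIR93 and MIR106B were at 0.56, 0.20 and 0.13 while MCM7 was at −1.17. In HUWE1, which encodes a ubiquitin ligase, MIR98 and MIRLET7F2 were at 0.46 and 0.49 while the gene was at −1.20. The 4 exceptions were MIR18A, MIR663B, MIR1236 and MIR4461. MIR17HG, the host of the MIR17 cluster, was itself at 0.01, and its hairpins MIR17, MIR18A and MIR20A lay within 0.35 of it. In RFs 24 of the 44 pairs whose hairpin had any reads lay above their gene, with a median difference of 0.05.

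**Figure D3:**
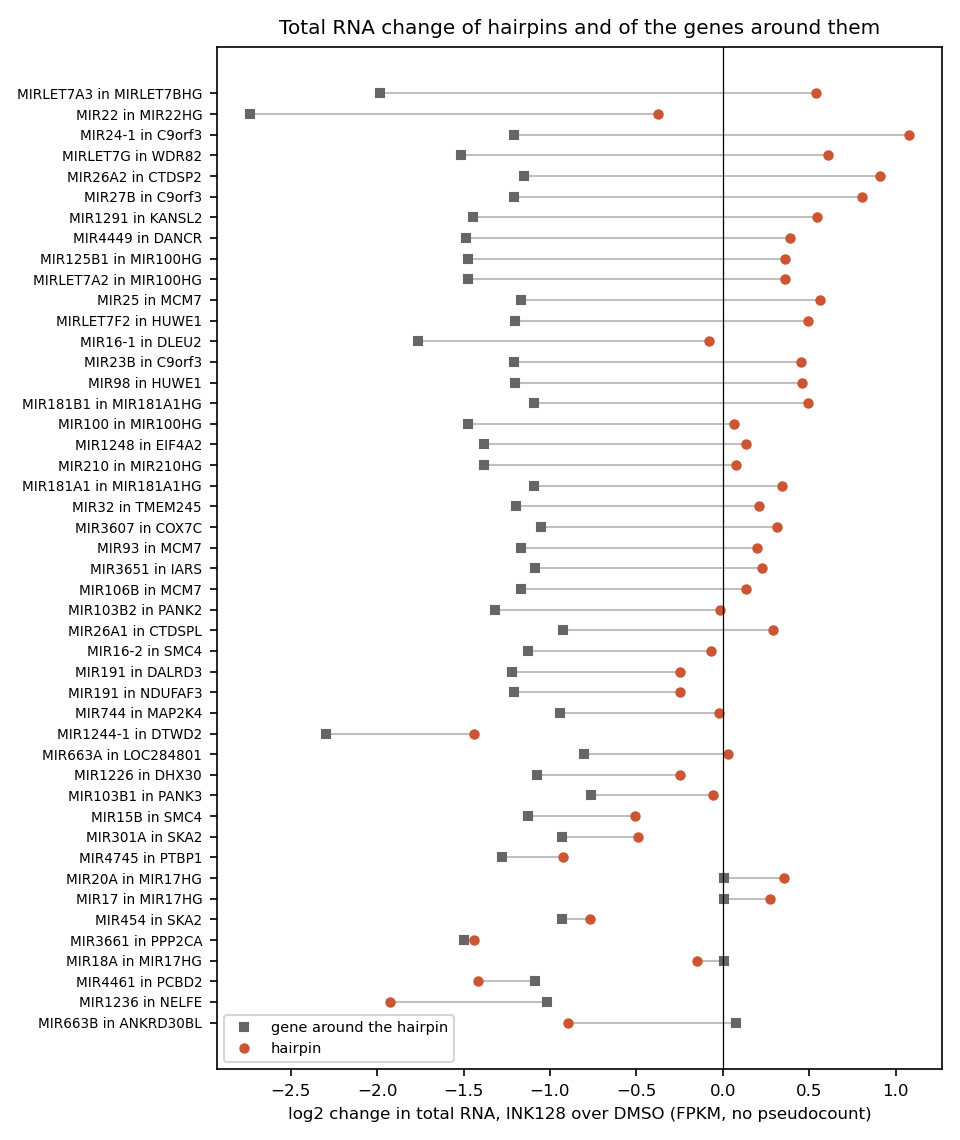
Log2 change in total RNA with INK128, from FPKM without a pseudocount, for 46 pairs of a hairpin (red circle) and the gene whose locus holds it (grey square), ordered by the difference within the pair. Each value compares 1 library with 1 library. The genes centre near −1.20 and the hairpins near 0.13, and the hairpin lies to the right of its gene in all but the lowest 4 and the near-equal MIR3661. Other genes under 200 bases, not drawn here, had a median of 0.14.

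Clusters, taken as loci within 10 kb of each other, numbered 16 and held 37 of the hairpins. All members had the same direction of change in 6 of the 16 clusters in RFs and in 12 in total RNA. Of the hairpins that passed the filter, 62.8% were above 0 in RFs and 65.0% in total RNA. Hairpins of different clusters would therefore often share a direction too, and how often was not computed. The distance between the highest and lowest member of a cluster had a median of 1.44 in RFs and 0.47 in total RNA on the log2 scale. RF reads behind these values were fewer than total RNA reads, and this difference between assays was not tested.

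The cluster of MIR23A, MIR27A and MIR24-2 lies in an exon of MIR23AHG at chr19:13947101-13947473, a stretch of 373 bases. MIR23A had 29 RF reads with DMSO and 89 with INK128, a ratio of 3.10 (2.02 to 4.89). MIR24-2 had 13 and 48, a ratio of 3.73 (1.99 to 7.50). MIR27A, between them, had 421 and 348, a ratio of 0.834 (0.722 to 0.964), so that the interval of the middle hairpin did not meet those of its neighbours. In total RNA the 3 hairpins had ratios of 1.13, 1.78 and 1.44 for MIR23A, MIR27A and MIR24-2, and MIR27A was the highest.

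In the paralogous cluster of MIR23B, MIR27B and MIR24-1, within 881 bases on chromosome 9, MIR23B had 8 and 19 RF reads, a ratio of 2.40 (1.00 to 6.33). MIR27B had 40 and 36, a ratio of 0.909 (0.563 to 1.46), and MIR24-1 had 20 and 16, a ratio of 0.808 (0.391 to 1.64). The miR-23 hairpins were thus the highest or near highest and the miR-27 hairpins near or below no change in both clusters, while the miR-24 hairpins differed. Intervals within the chromosome 9 cluster overlapped, which does not show that its hairpins changed alike. In total RNA MIR23B, MIR27B and MIR24-1 had 54 and 70, 58 and 96, and 38 and 76 reads.

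MIR3648 and MIR3687, within 432 bases on chromosome 21, also lay on opposite sides of no change in RFs. Their ratios were 0.423 (0.236 to 0.733) and 1.72 (0.807 to 3.86), and these intervals did not meet, while in total RNA both were near 1.

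The values of the other clusters were as follows. The cluster of MIRLET7A1, MIRLET7F1 and MIRLET7D lay between −0.40 and 0.03 in RFs and between 0.01 and 0.55 in total RNA. MIR181A1 and MIR181B1 were at 0.54 and 0.44 in RFs, and MIR181A2 and MIR181B2 at 0.78 and 1.41. MIR15B and MIR16-2 of the miR-15 family, whose targets include BCL2 and cyclins, lie within 238 bases in SMC4 and had 18 and 19 against 14 and 4 RF reads. MIR424 and MIR503 had 6 and 1 against 14 and 12, and MIRLET7E and MIR125A had 11 and 5 against 4 and 7. MIR182 and MIR96 were at 0.77 and 0.27 in RFs but at −0.17 and −0.91 in total RNA. MIR30B and MIR30D had 3 and 2 against 6 and 4 RF reads and were at 0.61 and −0.55 in total RNA. MIRLET7A2 and MIR100, within MIR100HG, were at −0.56 and 0.11 in RFs. MIR17, MIR18A and MIR20A had at most 4.18 RF reads in any library.

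**Figure D4:**
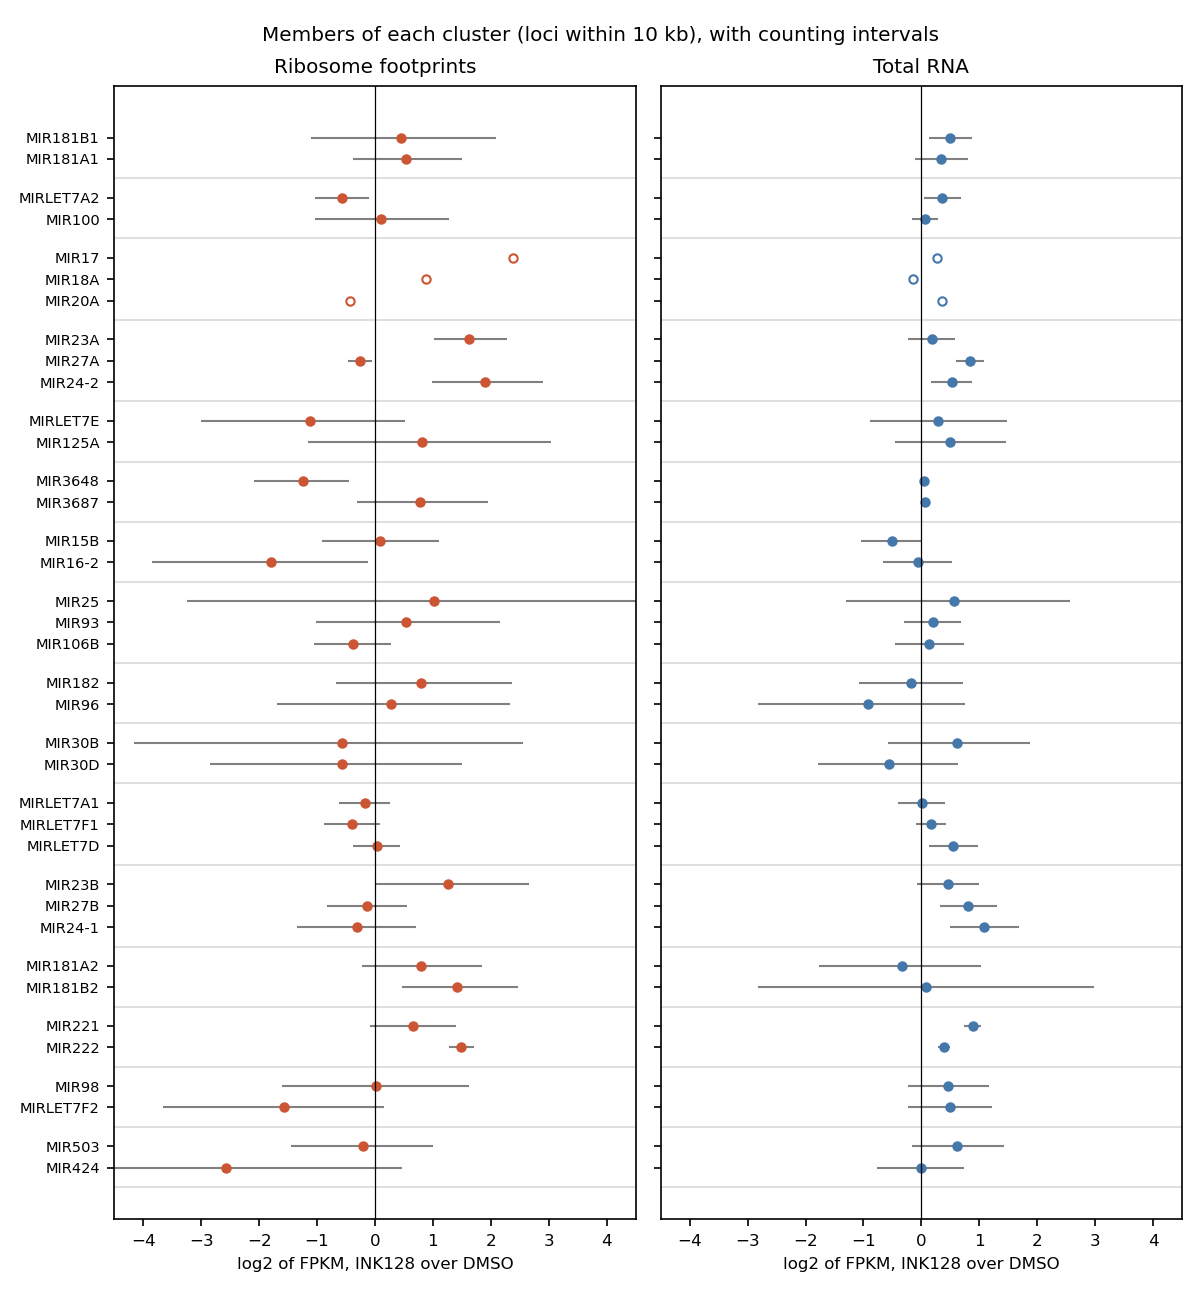
Log2 ratio of FPKM, INK128 over DMSO, for the members of the 16 clusters in RFs (left) and total RNA (right), without a pseudocount. Points are single comparisons of 1 library with 1 library, horizontal bars are 95% counting intervals from the recovered reads, open points had no whole reads, and grey lines part the clusters. MIR27A lies below its neighbours MIR23A and MIR24-2 in RFs and above them in total RNA, and most bars in RFs cross 0.

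The let-7 family has the most members in the table, 9 let-7 hairpins and MIR98, and all carry the seed GAGGUAG printed above. In RFs 8 of the 10 were lower with INK128, with a median log2 change of −0.48, and the other 2, MIRLET7D and MIR98, were at 0.03 and 0.01. In total RNA all 10 were above 0, with a median of 0.46, although MIRLET7A1 was at 0.01. Of all 80 hairpins, 40 had more and 29 fewer RF FPKM with INK128, leaving out equal reads and loci with none, and 65.0% of hairpins and 76.0% of other short genes were above 0 in total RNA. This difference of the family from the other hairpins was not tested.

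By locus, MIRLET7A2 had 97 RF reads with DMSO and 65 with INK128, a ratio of 0.676 (0.486 to 0.936), and it was the only let-7 hairpin whose interval left out no change. MIRLET7F1 had 85 and 64 RF reads, MIRLET7A1 95 and 83.5, MIRLET7D 105 and 106, MIRLET7I 37 and 29, MIRLET7F2 12 and 4, MIRLET7E 11 and 5, MIRLET7G 4 and 2, and MIR98 8 in each library. MIRLET7A3, of status LOWDATA, was left out of the sums. Over the other 9 hairpins, 454 and 366.5 RF reads gave a ratio of 0.815 (0.708 to 0.937), and 0.853 without MIRLET7A2. Their total RNA reads summed to 772 and 909, a ratio of 1.24 (1.13 to 1.37). Of single loci in total RNA, MIRLET7D had 83 and 115 reads, a ratio of 1.46 (1.09 to 1.96), and MIRLET7I 95 and 124, a ratio of 1.38 (1.05 to 1.82). The RF and total RNA values of the family thus lay on opposite sides of no change, by less than 1.5-fold each.

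Other families were smaller. Of the 18 hairpins named in the following sentences, the RF counting interval left out no change in MIR181B2, MIR301A and MIR16-2 alone, and MIR17 and MIR20A had none, so the directions of the others are given as values. All 4 miR-181 hairpins were above 0 in RFs, with a median of 0.66, and 52 and 94 RF reads in sum. For these and the following families, 62.8% of hairpins and 81.0% of other genes under 200 bases were above 0 in RFs. The median of these other short genes was 0.74. In total RNA the shares above 0 were 65.0% and 76.0%. The miR-15, miR-16 and miR-424 hairpins were split, 2 up and 2 down in RFs, and all 4 were below 0 in total RNA, between −0.51 and −0.01, but above 0 once centred on the median of all genes. Of the miR-17 seed family, MIR106B and MIR20A were below 0 and MIR93 and MIR17 above 0 in RFs, and all 4 were above 0 in total RNA. MIR125A and MIR125B1, with 4 and 7 and with 56 and 74 RF reads, were above 0 in both assays, as were MIR29B1 and MIR29B2 with 9 and 11.5 and with 4 and 5.5 RF reads. MIR301A and MIR454, which lie in introns of SKA2, were at 2.15 and 0.86 in RFs and at −0.49 and −0.72 in total RNA. Both total RNA intervals held no change (0.428 to 1.17 and 0.154 to 1.95), and centred on the median of all genes the values were 0.24 and 0.00094.

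**Figure D5:**
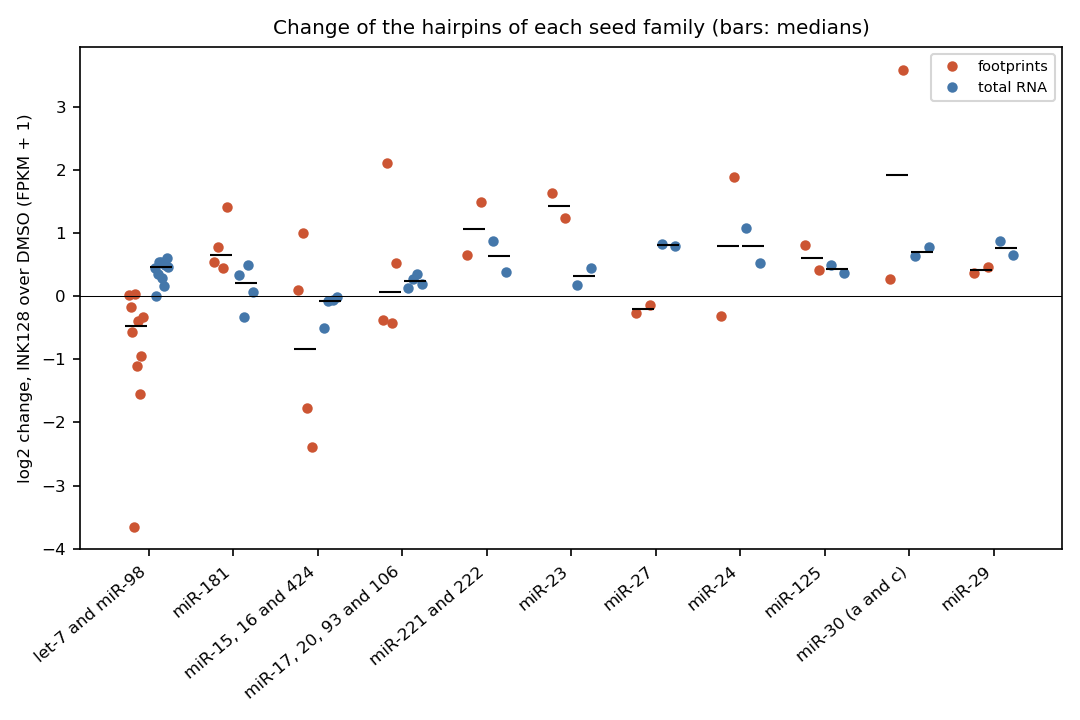
Log2 change with INK128 on the FPKM + 1 scale of the hairpins of selected seed families, in RFs (red) and total RNA (blue). Families such as miR-26a are not drawn. MIR30B and MIR30D, without a mature strand found, are not drawn either and were at −0.54 and −0.57 in RFs. Each point is 1 hairpin in 1 library per treatment and black bars are medians. In RFs 8 of the 10 let-7 points lie below 0 and the other 2 at 0.03 and 0.01 (median −0.48), in total RNA all 10 lie above 0 (median 0.46), and the miR-181, miR-221 and miR-23 points lie above 0 in RFs.

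The ratio of RF to total RNA FPKM was also taken, on the log2 scale with 1 FPKM added to each. Hairpins had a median of −1.91 with DMSO and −1.66 with INK128, against 3.53 and 4.21 for the 3154 genes with a mean of at least 1 FPKM in both assays. The ratio was above 0 with DMSO in 14 of 78 hairpins and in 88.8% of all genes. With INK128 it was past 2-fold higher in 22 hairpins and lower in 17, beside 17.6% and 1.05% of all genes, whose median change was 0.74 where that of the hairpins was 0.06. More RF than total RNA reads were found in 8 hairpins with DMSO, which were MIR27A, MIR138-1, MIR181A2, MIR181B2, MIR191, MIR320A, MIR3661 and MIRLET7D, and in 7 with INK128. These are numbers of reads in libraries of unequal size, and 1 RF read per total RNA read is no border on the FPKM scale.

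Genes of microRNA processing were set beside the hairpins, from a list of 31 genes of which 30 were in the table. Of the 29 that passed the RF filter, 0 were past 2-fold in either direction, beside 1.05% higher and 1.38% lower of all genes, with a median log2 RF change of −0.05. DROSHA, the nuclear hairpin-cutting RNase, had 8.29 RF FPKM with DMSO and 8.54 with INK128, and its partner DGCR8 had 2.98 and 3.03. DICER1 had 5.38 and 6.45, XPO5 24.6 and 20.9, and AGO2, which carries the mature strand, 10.7 and 10.1. The lowest was HNRNPA1, which binds certain primary transcripts, at −0.74, from 69.2 and 41.0 RF FPKM. The highest was AGO4 at 0.42, from 0.970 and 1.63. In total RNA 11 passed the filter, all below 0 with a median of −0.86, and 4 (DDX5, HNRNPA1, KHSRP and RAN) were past 2-fold lower. Of all genes under the same filter 15.2% were past 2-fold lower, 8.83% were above 0 and the median was −0.73.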

How the data were processed

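The authors prepared RFs from RNase I treated lysates and RNA from the same kind of cells, and libraries were strand-specific. Per the labels, hg19 (GRCh37), CASAVA 1.8.1 and Bowtie2 were used. The authors deposited FPKM values, 1 column per library, and the program behind them is not given in the sources used here. Further columns hold the authors' TE, its log2 change and a z-score, and were not used. The Silvestrol table lists none of these symbols and was not used here. There were 0 other columns of single libraries.

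Log2 changes were log2[(INK128 + 1)/(DMSO + 1)] for genes with a mean of at least 1 FPKM, counted past 1 (2-fold). Reads were recovered by dividing FPKM by the value of 1 read, from an effective length with fragments of 200 ± 80 bases and at least 23 bases. Of values under 150 reads, 89.7% to 96.9% per library were whole within 0.01. The recovery and its length model were chosen after the values were seen. Reads simulated with the same length model for 322 genes under 200 bases were all recovered, which tests the arithmetic and not the model. Some loci had fractions of reads, and their source was not tested. Intervals are exact conditional binomial ones (95%). No p-value was computed. Annotation was GENCODE version 44 lifted to GRCh37, with at least 50% overlap. 63 of the 80 loci had a strand there, and the rest were placed regardless of strand.

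Named hairpins were the 10 highest per assay, those past 2-fold (up to 10 each way), members of clusters, and listed families. Further hairpins were named after their values were seen. Members of MIR200, MIR141, MIR31, MIR155, MIR34, MIR10 and MIR99 were not analysed here. The hairpins, lists and rules were chosen with earlier results of these data known. Scripts ran on Python 3.11.15 with scipy 1.17.1, numpy 2.4.6, matplotlib 3.10.9 and pandas 2.3.3.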

Additional observations from a re-analysis of the deposited data

How the results depend on the processing

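No paired analysis was possible because each group has 1 library. Under the pseudocounts and filters tried, the median RF change of the hairpins ran from 0.02 to 0.09 and that of the ratio from 0.06 to 0.07. With cluster distances of 3 and 50 kb, 30.8% and 44.4% of clusters had 1 direction in RFs. Of the 462 values of single hairpins under another pseudocount or centring, 408 stayed and 54 moved, 48 of them by centring. A value moved when it left its counting interval, or by at least 0.1 where it had none. A change of direction past 2-fold could not occur, since a pseudocount keeps the sign and the centring shifts were below 1. The next 3 choices were added after the data were seen. By counting intervals, 10 of 72 hairpins were higher and 6 lower in RFs, and 23 of 71 were higher and 7 lower in total RNA. Among other genes under 200 bases these shares were 65.9% and 6.19% in RFs, and 62.2% and 13.9% in total RNA. With at least 20 reads, 9 of 39 hairpins were past 2-fold higher and 4 lower in RFs. The median was 0.34 in place of 0.06. This filter was not applied to all genes, of which 1.05% were higher and 1.38% lower without it. Without the LOWDATA hairpins no count moved by over 1.5 times. Centring on the median of all genes gave 36 hairpins higher and 1 lower in total RNA, with a median of 0.93, and 2.42% and 0.0314% of all genes. Also without a pseudocount, a choice added after the data were seen, this gave 58 and 0 with a median of 1.35, and 10.97% and 0.189% of all genes. The share of all genes past 2-fold moved more. At 10 FPKM it was 1.90% higher and 2.61% lower in RFs, and 0.61% and 30.8% in total RNA. Among genes under 200 bases, the hairpins themselves included, it was 28.1% and 5.31% in RFs, and 1.24% and 2.17% in total RNA. Without the hairpins it was 31.4% and 2.48% in RFs, and 0.413% and 0% in total RNA. Every short gene counted as lower in total RNA was thus a hairpin. In total RNA, the lower share of all genes was 64.5% with a pseudocount of 0.1 and 71.5% without one. With no filter it was 3.69%, and 0.0304% were higher. The cause was not tested. Of the 80 hairpins, 19 had at most 3 RF reads in both libraries, MIR17 and MIR130A among them, too few to read a change from.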
